A study of Mus musculus with 4 samples.

Results

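Nkx2-5, Hand1, Hand2, Isl1, Mef2a, Mef2b, Mef2c, Mef2d, Srf and Myocd are the genes of the core transcription factors of the heart. These 10 genes were named as a list, and they are 10 of the 21670 protein-coding genes that were measured. For each gene, every peak of histone H3 trimethylated at lysine 4 (H3K4me3) that overlapped the region from 10 kb upstream to the gene end was read, together with every annotated start of a protein-coding transcript. That region is called the locus below.

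H3K4me3 is a histone modification that collects on nucleosomes around active transcription starts, where it usually flanks the start on one or both sides. NKX2-5 is a homeodomain factor of the cardiac lineage, ISL1 a LIM-homeodomain factor of cardiac progenitors and of pacemaker cells and neurons, and HAND1 and HAND2 are bHLH factors that are best known from the left and right ventricle of the embryo. MEF2 proteins and SRF are related MADS-box factors of muscle genes, and myocardin, the product of Myocd, is the coactivator of SRF in cardiac and smooth muscle.

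ChIP-seq, which sequences the DNA bound to an immunoprecipitated histone mark, was done on heart tissue from B6CASTF1/J females, a hybrid strain, at an age of 2 months. The material was tissue handled with a frozen-tissue protocol and fragments of 200 to 600 bp. There were 4 libraries, 2 technical replicates from each of 2 pools named G and H, and each pool was made of 2 heart biosamples. Both pools carry the same donor record, so the labels do not show that they came from separate animals, and no treatment, genotype or second tissue was included.

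The values come from 4 peak lists on mouse build mm10. The replicated list of both pools held 24996 peaks, a second list of both pools called on pseudoreplicates 26412, pool G's own list 24826 and pool H's own list 21505. Read depth was not given, and both technical replicates of a pool share 1 alignment, so pools and not libraries are the replicates here (n = 2), and the SD between them may be technical. A peak's fold enrichment is the authors' own value, a ratio read as signal over control. It runs higher in pool G, where the median over all genes with a promoter peak was 18.16, than in pool H, where it was 12.92. An SD of fold enrichment between the pools therefore contains this difference of scale.

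A promoter peak was found at 7 of 7 listed cardiomyocyte markers, 5 of 5 endothelial, 5 of 5 fibroblast and 5 of 5 sinoatrial and conduction markers in the replicated list. It was found at 2 of 5 smooth muscle and pericyte markers. None of the 5 immune, 5 skeletal muscle and 4 hepatocyte markers had one. The tissue is a mixture, so fewer marked cells and less mark per cell cannot be told apart.

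The promoter sequences that carry the main differences among the genes are shown first, from 250 bases before to 50 bases from each RefSeq start on GRCm38.p6, read 5′ to 3′ on the gene's strand. RefSeq promoter entries were matched for 8 of the 10 genes, all except Hand1 and Myocd. Nkx2-5 (chr17:26841516-26841815, minus strand) and Mef2d (chr3:88142122-88142421, plus strand) are shown because their RefSeq start lay in a gap between peaks. Capitals mark the bases under no peak of the replicated list.
Nkx2-5: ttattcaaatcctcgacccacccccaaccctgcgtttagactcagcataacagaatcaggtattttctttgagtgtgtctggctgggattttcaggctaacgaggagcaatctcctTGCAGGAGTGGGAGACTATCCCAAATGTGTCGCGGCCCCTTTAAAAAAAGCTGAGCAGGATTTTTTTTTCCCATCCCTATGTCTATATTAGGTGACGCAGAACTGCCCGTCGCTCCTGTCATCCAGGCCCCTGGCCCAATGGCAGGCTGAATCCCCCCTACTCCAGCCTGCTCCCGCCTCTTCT
Mef2d: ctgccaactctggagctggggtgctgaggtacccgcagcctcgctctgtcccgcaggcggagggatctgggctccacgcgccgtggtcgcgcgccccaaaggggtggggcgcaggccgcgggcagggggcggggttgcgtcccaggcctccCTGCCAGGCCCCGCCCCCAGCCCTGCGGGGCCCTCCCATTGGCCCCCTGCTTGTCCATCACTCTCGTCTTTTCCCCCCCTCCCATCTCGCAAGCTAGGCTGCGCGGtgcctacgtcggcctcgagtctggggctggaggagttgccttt
The uncovered stretch was 184 bases of 54.9% GC in the Nkx2-5 window and 106 bases of 70.8% GC in the Mef2d window.

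The 3 Mef2c entries, the Mef2b entry and the Isl1 entry are shown to set marked beside unmarked starts, and capitals mark each CG. They lie at chr13:83503784-83504083, chr13:83523406-83523705 and chr13:83573357-83573656 on the plus strand (Mef2c), at chr8:70152511-70152810 on the plus strand (Mef2b) and at chr13:116309639-116309938 on the minus strand (Isl1).
Mef2c start 1, under no peak: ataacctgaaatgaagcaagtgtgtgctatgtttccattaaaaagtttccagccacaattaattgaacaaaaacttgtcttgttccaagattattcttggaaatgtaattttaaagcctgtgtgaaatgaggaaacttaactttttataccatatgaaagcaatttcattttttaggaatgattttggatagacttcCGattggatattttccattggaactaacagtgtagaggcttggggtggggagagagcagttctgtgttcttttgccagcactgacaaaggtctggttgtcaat
Mef2c start 2, under the highest Mef2c peak: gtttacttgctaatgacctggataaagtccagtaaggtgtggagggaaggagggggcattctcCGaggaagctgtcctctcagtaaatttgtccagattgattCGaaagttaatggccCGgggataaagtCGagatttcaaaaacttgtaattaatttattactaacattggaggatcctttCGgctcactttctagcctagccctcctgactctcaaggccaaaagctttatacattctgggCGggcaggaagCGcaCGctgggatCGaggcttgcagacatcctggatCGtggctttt
Mef2c start 3, under a weak peak in the replicated list and pool G and under none in pool H: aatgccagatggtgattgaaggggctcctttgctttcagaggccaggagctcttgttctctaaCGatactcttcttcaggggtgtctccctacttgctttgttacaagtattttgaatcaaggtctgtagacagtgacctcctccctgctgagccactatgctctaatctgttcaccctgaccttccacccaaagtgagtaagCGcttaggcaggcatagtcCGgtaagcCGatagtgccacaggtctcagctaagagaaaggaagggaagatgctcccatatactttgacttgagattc
Mef2b, under no peak: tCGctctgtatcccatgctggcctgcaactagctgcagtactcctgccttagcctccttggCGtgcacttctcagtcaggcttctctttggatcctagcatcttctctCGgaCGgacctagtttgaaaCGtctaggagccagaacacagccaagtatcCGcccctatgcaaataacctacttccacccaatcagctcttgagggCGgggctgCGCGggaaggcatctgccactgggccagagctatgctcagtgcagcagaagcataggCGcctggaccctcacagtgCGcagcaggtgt
Isl1, under a narrow weak peak: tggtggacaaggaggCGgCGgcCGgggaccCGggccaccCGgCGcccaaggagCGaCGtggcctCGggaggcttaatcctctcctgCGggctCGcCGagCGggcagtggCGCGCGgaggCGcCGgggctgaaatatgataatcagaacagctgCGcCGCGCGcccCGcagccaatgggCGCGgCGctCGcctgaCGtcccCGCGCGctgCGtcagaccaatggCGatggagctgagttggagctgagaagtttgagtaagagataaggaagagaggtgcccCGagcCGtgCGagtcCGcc
These windows held 1, 10 and 4 CG for the 3 Mef2c starts, 11 for Mef2b and 37 for Isl1. The CG count does not separate them: the unmarked Mef2b window held more than both marked Mef2c windows. Among the 10 entries of the 8 genes, Isl1 held the most CG.

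Srf (chr17:46556113-46556412, minus strand) and Mef2a (chr7:67372809-67373108, minus strand) are shown for the recognition sequences of their own protein families. Capitals mark the CArG box, the sequence that SRF binds, in Srf, and the MEF2 site in Mef2a.
Srf: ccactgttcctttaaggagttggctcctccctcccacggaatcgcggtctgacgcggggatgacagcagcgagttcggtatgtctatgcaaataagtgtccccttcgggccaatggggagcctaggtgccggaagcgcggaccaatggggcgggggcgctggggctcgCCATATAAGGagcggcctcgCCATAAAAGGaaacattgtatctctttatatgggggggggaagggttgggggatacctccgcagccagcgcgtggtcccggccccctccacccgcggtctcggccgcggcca
Mef2a: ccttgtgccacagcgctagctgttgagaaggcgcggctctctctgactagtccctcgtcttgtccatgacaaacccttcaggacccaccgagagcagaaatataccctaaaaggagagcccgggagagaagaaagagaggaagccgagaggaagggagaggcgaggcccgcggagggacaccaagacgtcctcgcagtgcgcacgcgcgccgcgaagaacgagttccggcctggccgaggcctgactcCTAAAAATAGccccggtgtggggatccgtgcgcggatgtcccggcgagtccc
The Srf boxes began at positions -82 and -62 and the Mef2a site at -2, counted from the first transcribed base as 0. No MEF2 site was found in the windows of Mef2b, Mef2c and Mef2d. On both strands, a CArG box was found in 1.63% of the 32851 RefSeq promoter windows, a MEF2 site in 3.19%, and the GATA sequence AGATAA in 11.2%. The last was found in the Hand2 window at -172 and in the Isl1 window at 10. No matches of these motifs overlapped each other, and a match is a description of the letters only.

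A peak within 1000 bp of a protein-coding start was present at 9 of the 10 genes in each of the 4 lists. The same holds for 63% of all coding genes in the replicated list, 63.4% in the pseudoreplicated list and in pool G, and 61.3% in pool H. The exception in every list was Hand1. The number of genes with at least 1 peak anywhere in the locus was also 9 of 10 in each list, beside 68% of all coding genes in the replicated list, 68.4% in the pseudoreplicated list, 68.3% in pool G and 66% in pool H.

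The promoters of these genes mostly lay above the all-gene median in the width of the mark, but not in its height. Gaps of up to 1000 bp between peaks were bridged to form domains, and the widest domain touching a promoter was taken. The median domain of the 9 genes measured 5066 bp in the replicated list, with 5070 bp for pool G and 4186 bp for pool H, and that of all genes with a promoter peak 1799, 1892 and 1680 bp. Median fold enrichment of the 9 was 15.07, 15.35 and 10.49 in the same order, and over all genes 15.26, 18.16 and 12.92. In the replicated list 8 of 9 were wider than the all-gene median and 3 of 9 were above it in fold enrichment. A further cutoff, the same for every list, was 2 times the all-gene median of the replicated list. A domain of at least that width was carried by 7 of 9 in the replicated list, 6 in pool G and 7 in pool H. Beside these stand 9.26%, 10.8% and 6.88% of all genes with a promoter peak. Those shares also contain the difference in width between the lists. When no gap was joined, the median was 3255 bp against 1627 bp, and 7 of 9 were wider.

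**Figure D1:**
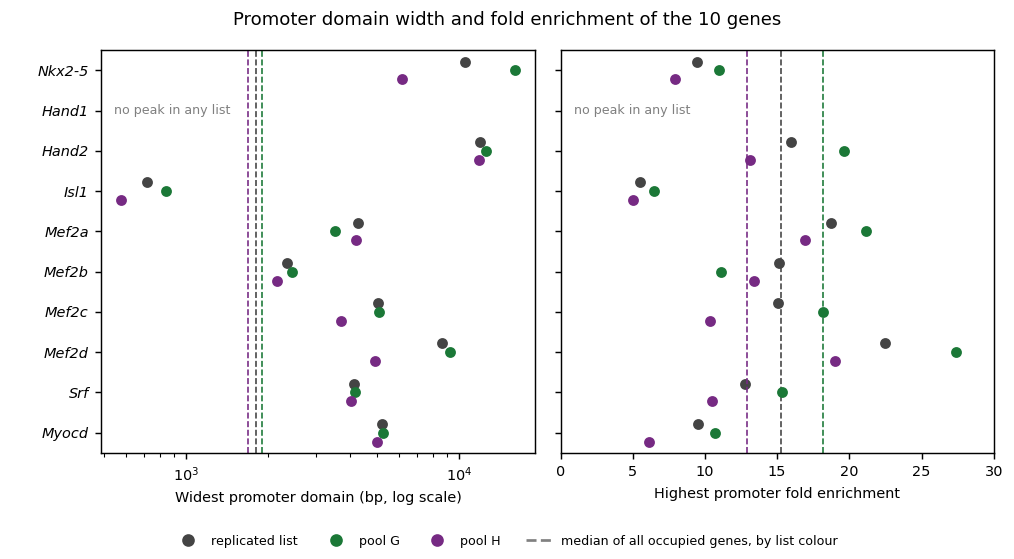
Widest promoter domain in bp on a log axis (left) and highest promoter fold enrichment (right) of the 10 genes, with 1 point for each of the replicated list, pool G and pool H, and dashed lines at the median of all genes with a promoter peak in each list. Of the 9 genes with a peak, all except Isl1 lie to the right of the width medians, whereas the fold enrichments lie on both sides of theirs.

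Nkx2-5 carried a domain of 10559 bp in the replicated list, percentile 99.8 of width among all genes with a promoter peak, at a fold enrichment of 9.43, percentile 20.6. That domain, chr17:26836303-26846861, ran past the 3′ end of the gene at 26838664. In pool G the domain was 16021 bp and the fold enrichment 10.98, and in pool H 6172 bp and 7.9. Its width was 11097 ± 6964 bp (SD, n = 2 pools). That SD of width was the largest among the 9 genes under the 1000 bp joining rule. With gaps of up to 1000 bp joined, 11 peaks formed a single domain, chr17:26836336-26852356, in pool G, and peaks covered 13116 bp of it. In pool H the chain of peaks fell into 3 domains. The locus held 9 replicated peaks, which covered 61.2% of it (67.1% in pool G, 48.3% in pool H).

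The highest Nkx2-5 peak, chr17:26838236-26841490, lay over the gene and ended 75 bp short of the main start at chr17:26841565, the 5′-most start of transcript support level 1. The next peak, chr17:26841700-26842494, began 135 bp from that start on the other side, so the start lay in a gap of 209 bp. Pool G gave a gap of 207 bp and pool H one of 196 bp, and the start was under no peak in any list. The alternative start at 26845009, of an annotated transcript without a support level, was also under no peak, 62 bp from the nearest. A further peak away from both starts, chr17:26849177-26851517, had a fold enrichment of 7.93 (10.51 in pool G, 7.13 in pool H), and its summit lay 5215 bp upstream of the alternative start.

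Mef2d, a MEF2 gene expressed in many tissues, also had its main start, chr3:88142372, between a pair of peaks, but at the edge of the gap. The start lay 7 bp from the downstream peak in the replicated list (1 bp for pool G, 22 bp for pool H), and 100, 97 and 104 bp from the upstream one. The gap was 106 bp in the replicated list, 97 bp for pool G and 125 bp for pool H. The pair comprised chr3:88140791-88142272 with a fold enrichment of 15.89 and chr3:88142379-88146416 with 22.48, the highest value among the 9 genes and percentile 92.2 of all. In pool G the highest was 27.39 and in pool H 19.01 (23.2 ± 5.92, SD, n = 2 pools). A main start of support level 1 in a gap between peaks was thus seen at 2 of the 10 genes in these lists, beside 3.03% of the 17269 genes with such a start in the replicated list, 2.36% in pool G and 3.7% in pool H. Both genes' gaps were found in both pools. Another annotated start of Mef2d lay under a peak in every list, whereas no start of Nkx2-5 did.

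Mef2d had a domain of 8657 bp in the replicated list and of 9273 bp in pool G. In pool H it measured 4906 bp and ended before the upstream peak. That upstream peak, chr3:88137760-88139861, had a fold enrichment of 16.49 in the replicated list, 9.79 in pool G and 14.99 in pool H. It was above the all-gene promoter median of the replicated list and of pool H and below that of pool G. Its summit lay 3405 bp upstream of the start, and no coding start lay within 1000 bp of the peak. A pair of intronic peaks between chr3:88149263 and 88151474 reached 7.47.

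Hand2 carried the widest domain of the 9 genes in the replicated list, 11937 bp (percentile 99.9), with 12568 bp for pool G and 11810 bp for pool H. The replicated domain, chr8:57317596-57329532, ran past the gene end at 57324633. Unlike that of Nkx2-5, the Hand2 width differed little between the pools (12189 ± 536 bp, SD, n = 2). This contrast depended on the 1000 bp joining rule. With no gap joined, pools G and H gave 6929 against 3271 bp for Hand2, and 4614 against 2134 bp for Nkx2-5. With gaps of up to 3000 bp joined, the contrast was reversed. Hand2 then had 24547 against 16977 bp, and Nkx2-5 16021 against 15179 bp. The fold enrichment of Hand2 was 15.95 in the replicated list, 19.61 in pool G and 13.15 in pool H, near the all-gene median of each. A single replicated peak of 6830 bp, chr8:57318852-57325681, covered the whole gene, and pool H split it into a pair of peaks with fold enrichments of 13.15 and 11.11.

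Upstream of Hand2, chr8:57311364-57314068 had a fold enrichment of 8.37 (9.85 in pool G, 9.06 in pool H), with its summit 8184 bp from the start. Peaks covered 78.9% of the Hand2 locus, 86.6% in pool G and 60.9% in pool H. The coverage of Hand2 and Nkx2-5 compares with a median of 2.83% over all coding loci. The median over the 10 genes was 8.21%. Peaks more than 1000 bp from every coding start with a summit upstream of the gene were found in all lists at Nkx2-5, Hand2 and Mef2d, 3 of 10 genes, beside 5.53% of all coding genes in the replicated list, 5.45% in pool G and 4.24% in pool H.

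Hand1, the other HAND gene, was the opposite case. Its locus, chr11:57828705-57842818, held no peak in any list. The nearest peak, chr11:57827380-57828166, lay 539 bp beyond the 3′ end with a fold enrichment of 3.3 (3.52 in pool G, 3.79 in pool H), and the next peak upstream of the gene was 129388 bp away. No signal below the peak threshold could be read, so an absent peak shows only that none was called.

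**Figure D2:**
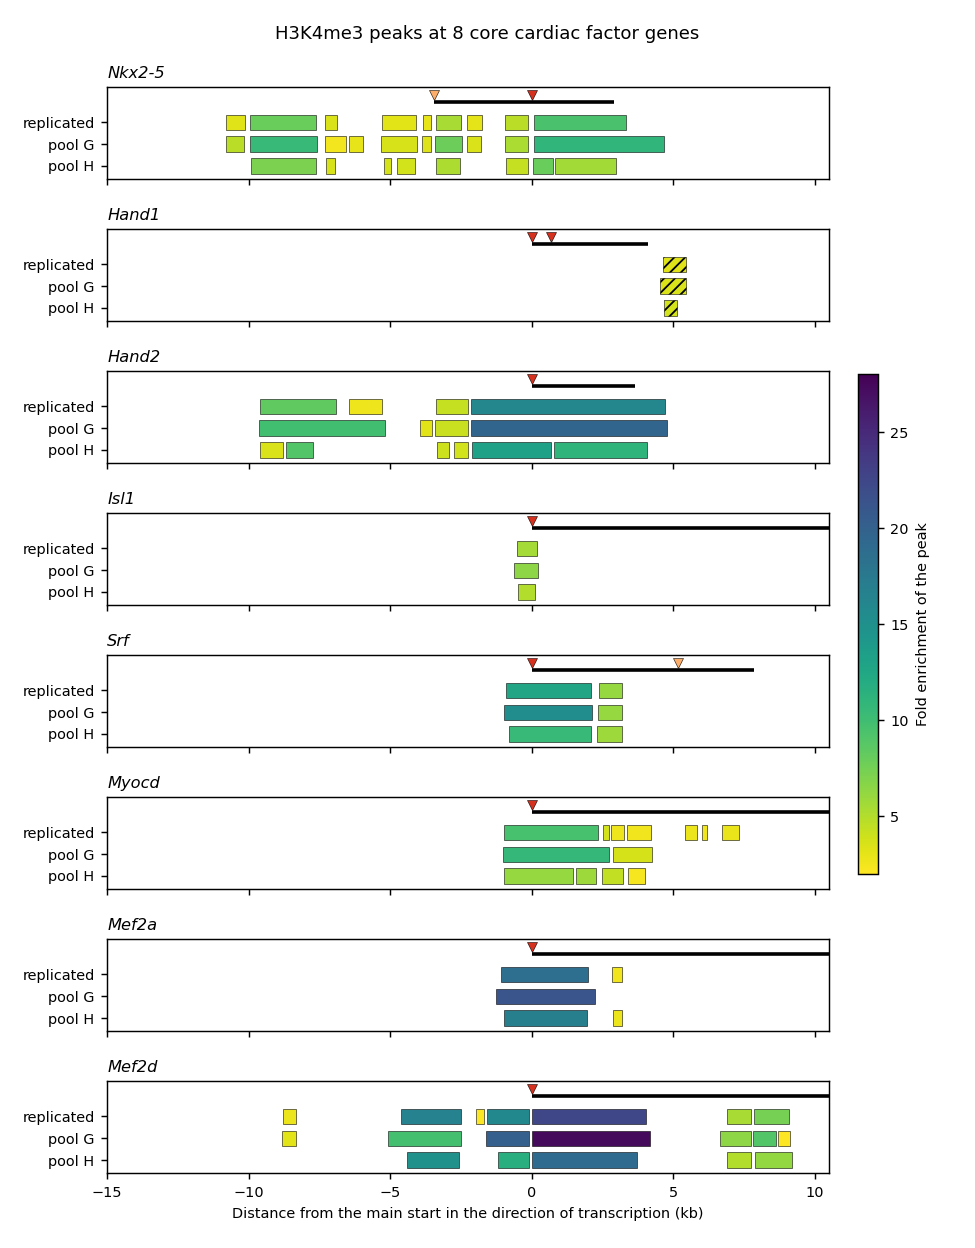
Peaks of the replicated list, pool G and pool H at 8 of the genes, drawn to scale against the distance in kb from the main start in the direction of transcription and coloured by fold enrichment. Black bars are the genes, cut at the right edge where they are longer, red triangles start groups of support level 1, orange triangles other start groups, and hatched boxes at Hand1 the peaks beyond its 3′ end. Peaks that overlap neither a locus nor this exception are not drawn, and Hand2 and Nkx2-5 show the densest cover.

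Isl1 had the narrowest promoter domain and the lowest fold enrichment of the 9 genes in every list. Its single peak, chr13:116309504-116310221, was 718 bp wide with a fold enrichment of 5.48, percentile 6.0 of width and 8.4 of fold enrichment. Pool G gave 844 bp and 6.44, and pool H 577 bp and 5.01. The peak lay over the CG-rich window printed above. Markers of cell types known to express Isl1 differed among themselves: Shox2 and Hcn4 of the sinoatrial node had promoter peaks of 3.94 and 11.26, while Th and Dbh of sympathetic neurons had none, and their part in the Isl1 value was not tested.

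With gaps of up to 1000 bp joined, Srf, the factor, had a narrower but higher promoter domain than Myocd, its coactivator. Srf measured 4109 bp (4170 in pool G, 4002 in pool H) and Myocd 5200 bp (5258 and 4985). With no gap joined, Srf was the wider in pool H, with 2907 against 2437 bp. It stayed the narrower in the replicated list (3006 against 3327 bp) and in pool G (3085 against 3739 bp). Fold enrichment of Srf was 12.76 (15.35 in pool G, 10.49 in pool H) and that of Myocd 9.53 (10.69 and 6.14), so that Srf was the higher in each list. The highest Srf peak, chr17:46554078-46557083, lay over the start, and a second, chr17:46552975-46553805, followed inside the gene at 6.14. The Myocd peak chr11:65267653-65270979 was followed by 3 intronic peaks of 2.57 to 3.75 in the same domain, and that domain held 4 peaks in pool H and 2 in pool G. A further 3 Myocd intronic peaks between chr11:65262646 and 65264556, of at most 2.88, overlapped no peak of the other lists.

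The 4 Mef2 genes differed in which of their starts carried the mark. Starts of protein-coding transcripts up to 500 bp apart were taken as 1 start group, and a group was called marked where a peak lay within 1000 bp of any of its starts. Over the 10 genes, 15 of 25 start groups were marked in the replicated list and in pool G, and 14 in pool H, beside 49.2%, 49.6% and 47.4% of the 34077 groups of all coding genes. Of the 7 genes with more than 1 group, 5 had both a marked and an unmarked one, beside 49.6% of such genes overall. The count was 5 of 7 in both pools too, beside 49.7% in pool G and 49.3% in pool H. Those 5 were Mef2a, Mef2b, Mef2c, Srf and Myocd. No start lay under a peak in 2 of the 15 marked groups of the replicated list, both of Nkx2-5, beside 11.4% of the marked groups of all coding genes. In pool G these were 2 of 15, beside 10.2%, and in pool H 4 of 14, beside 12.9%.

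Mef2c, an early MEF2 gene of the heart field, has 9 start groups, of which 6 were marked in the replicated list. The 5′-most group, 3 starts from chr13:83504034 to 83504240 with 6 transcripts and support level 1, was unmarked in every list. Its main start lay 13868 bp from the nearest peak downstream and 560541 bp from the nearest peak upstream. The highest Mef2c peak, chr13:83523240-83527286, covered groups 2 and 3, at 83523473 and at 83524291 to 83524891. Its fold enrichment was 15.07 (18.15 in pool G, 10.38 in pool H), and its domain measured 5066 bp (5070 and 3678).

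The remaining marked Mef2c groups were weak. The fourth, at 83530138, had 4.22 in the replicated list, 4.84 in pool G and no peak in pool H. Groups 5, 6 and 7, from 83572348 to 83575677, shared their highest peak, of 4.53 in the replicated list and 5.4 in pool G. In pool H they had 3.68 or 3.4. Groups 8 and 9 were unmarked in every list. Between the first and second groups, an intronic peak with no annotated coding start within 1000 bp, chr13:83517902-83518920, had a fold enrichment of 8.39 (10.68 in pool G), which is higher than that of any start group from the fourth on. In pool H it appeared as 2 peaks of 4.46 and 4.62.

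Mef2b, the most distant MEF2 member, was marked only at its 5′-most annotated start, chr8:70139711, support level 2. That window is shared with the coding genes Borcs8 and Rfxank, so the value there, 15.11 (11.14 in pool G, 13.4 in pool H; width 2344, 2445 and 2160 bp), cannot be assigned to Mef2b. Its main start group, 70152778 to 70152781, with 4 transcripts and support level 1, was unmarked in every list. The nearest peak to that main start, chr8:70158427-70158939, lay 5649 bp downstream in an intron with a fold enrichment of 6.83 (6.48 in pool G, 6.55 in pool H). The strongest peak of the locus, chr8:70130948-70132068 at 19.35, lay over starts of Nr2c2ap. If only starts of support level 1 were used, 8 of 10 genes had a promoter peak, without Hand1 and Mef2b.

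Mef2a, widely expressed in muscle, had 1 strong marked start, chr7:67372858, under the peak chr7:67370850-67373943. Fold enrichment was 18.72 (21.15 in pool G, 16.91 in pool H) and the domain 4273 bp (3501 and 4186). The wider value in the replicated list and pool H came from a weak intronic peak, chr7:67369671-67370030 at 2.51, that pool G lacked. Its second start, 67266162 of support level 5, was unmarked, 42599 bp from the nearest peak. Unmarked second starts were also found at Srf (46551019, no support level, 1956 bp from a peak) and at Myocd (65218559, support level 1, 44087 bp away, and 65205467, support level 3, 42298 bp away).

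**Figure D3:**
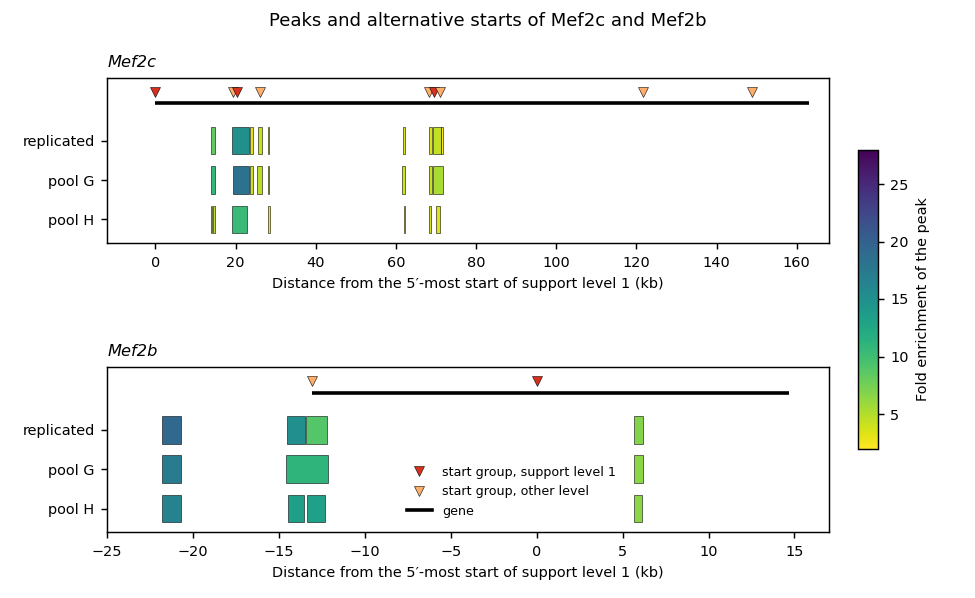
Peaks and start groups of Mef2c and Mef2b against the distance in kb from the 5′-most start of support level 1, with peaks coloured by fold enrichment for the replicated list, pool G and pool H. Red triangles are start groups of support level 1 and orange triangles the others, and at 0 kb neither gene has a peak in any list.

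The CpG content of the starts, which the choice of genes did not use, was set beside the mark. A group was called high-CpG where the window of 1000 bp on either side of a start reached a CpG ratio, observed over expected, of 0.6 together with 50% GC. All 5 high-CpG groups, 1 each of Hand2, Isl1, Mef2a, Mef2d and Srf, were marked, and 10 of the 20 low-CpG groups were. Over all coding genes the shares were 96.2% and 35.7%. Of the high-CpG groups, 4 had fold enrichments of 12.76 to 22.48, and Isl1, with a ratio of 0.78, had 5.48. Among the marked low-CpG groups, Mef2c groups 4 to 7, with ratios of 0.21 to 0.37, had 4.22 to 4.53, and Mef2c groups 2 and 3, with 0.58 and 0.59, had 15.07. Groups 5 to 7 share their highest peak, as do groups 2 and 3, so these are not separate measurements. Mef2c supplied most of the 10 marked low-CpG groups. Both unmarked Hand1 groups had ratios of 0.42 and 0.47, the highest among the 10 unmarked groups, and the main start of Nkx2-5 had 0.46.

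**Figure D4:**
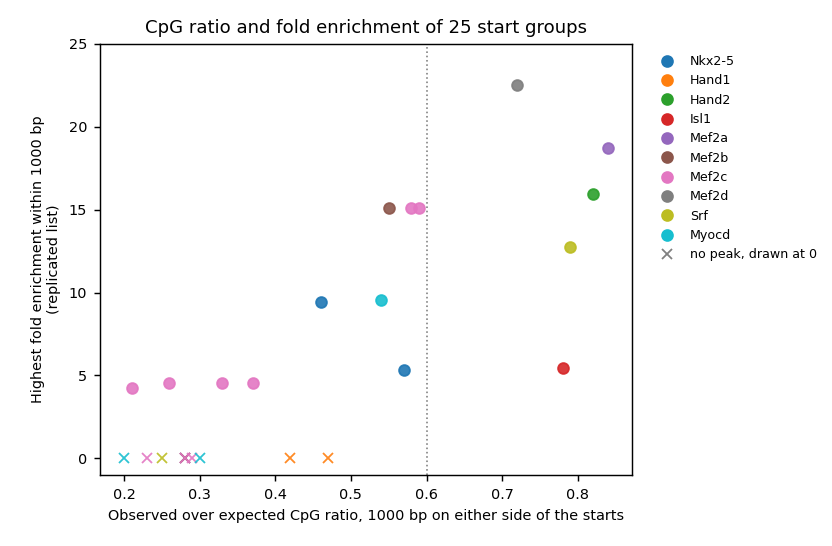
Highest fold enrichment within 1000 bp of each of the 25 start groups in the replicated list against the observed over expected CpG ratio of its window, coloured by gene, with crosses at 0 for groups without a peak and a dotted line at the ratio of 0.6. All 5 groups to the right of the line are marked, and the crosses lie to its left. Mef2c groups that share a peak are drawn as separate points.

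In all, the 10 loci held 45 replicated peaks, 38 in pool G and 39 in pool H. Of the 45, 32 overlapped a peak in each pool's own list and 4 overlapped none in either, the 3 Myocd intronic peaks and a Mef2d peak of 268 bp at chr3:88140420-88140687. A distance of more than 1000 bp from every coding start was found for 25 of the 45, beside 27.7% of the peaks of all coding loci. With −log10 q of at least 5 it was 12 of 29, beside 17%. In pool G it was 20 of 38, beside 28.4%, and in pool H 20 of 39, beside 19.8%. In the replicated list the distant peaks were lower, with a median fold enrichment of 3.3 against 9.19 for peaks near starts. The medians were 4.24 against 10.83 in pool G and 4.45 against 10.38 in pool H. Peaks near starts include those at Nr2c2ap, Borcs8 and Rfxank in the Mef2b locus. The distant peaks lay in the gene body of 7 of 10 genes, beside 14.3% of all coding genes in the replicated list. In pool G it was 6 of 10, without Mef2a, beside 14.4%, and in pool H 6 of 10, without Nkx2-5, beside 10.4%. The shares of all coding genes were not matched for gene length, which ran from 6346 bp (Nkx2-5) to 163047 bp (Mef2c) among those 7.

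Mef2b was left out of the order of the genes, since its value, 12.27 ± 1.6 (SD, n = 2 pools), belongs to a window shared with other coding genes. Ordered by the mean of the pools' own fold enrichments, the other 8 genes ran Mef2d, Mef2a (19.03 ± 3.0), Hand2 (16.38 ± 4.56), Mef2c (14.27 ± 5.5), Srf (12.92 ± 3.44), Nkx2-5 (9.44 ± 2.18), Myocd (8.41 ± 3.22) and Isl1 (5.72 ± 1.01; SD, n = 2 pools). The pools' ranges of all neighbours in this order overlapped, but these ranges contain the difference of scale between the pools. Within pool G the order was the same. Within pool H only Srf (10.49) and Mef2c (10.38) changed places. By width the order was Hand2, Nkx2-5, Mef2d (7090 ± 3088 bp), Myocd (5122 ± 193), Mef2c (4374 ± 984), Srf (4086 ± 119), Mef2a (3844 ± 484) and Isl1 (711 ± 189). Here the ranges of neighbours overlapped down to Mef2a, and Isl1 was separated from it. Genes whose domain also covers a start of a non-coding or unclassified transcript were kept in both orders. They were Hand2 with Hand2os1, Srf with Mir6976 and Mef2a with Gm44668. The mark at Hand2 and that at Hand2os1 cannot be told apart. With 2 pools and no contrast, no test was made.

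Known partners and targets of these factors show what the same measure gave along the pathway. The partner list held 28 genes, among them GATA and T-box factors, myocardin-related factors and histone deacetylases that bind MEF2, and 27 had a promoter peak in all 4 lists, at medians of 3162 bp for width and 13.19 for fold enrichment. Nkx2-6, a pharyngeal relative of Nkx2-5, was the 1 without. In the replicated list, where these medians were taken, the widest were Gata6 (13362 bp), Gata4 (11912 bp) and Tbx20 (7591 bp), whose proteins act with NKX2-5 on cardiac promoters. In pool G, Gata4 (13863 bp) was ahead of Gata6 (13549 bp), and Tbx5 (9770 bp) was ahead of Tbx20 (8333 bp).

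Of 24 target genes, 19 had a promoter peak in the replicated list, at medians of 4134 bp for width and 10.3 for fold enrichment. The widest in the replicated list was Myh6 (20319 bp), the alpha myosin heavy chain of the adult mouse heart, followed by Klf4 (7733 bp) and Actc1 (7655 bp), the cardiac actin. Myh6 was also the widest in pool G (18382 bp) and pool H (17654 bp), but the order behind it differed: Actc1 measured 9900 bp for pool G and 3217 bp for pool H, and Klf4 6642 and 6599 bp. The 5 without were Nppa, Myh7, Myl7, Tagln and Cnn1. Nppa and Myl7 are atrial genes, Myh7 is the myosin heavy chain of the fetal ventricle, and Tagln and Cnn1 are smooth muscle genes. The 4 lists called the same number of targets. Both lists of genes were compiled with knowledge of earlier results, so their counts are descriptions beside the all-gene share of 63%.

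Genes most like each factor were found by the distance over 4 values, the log2 width and log2 fold enrichment in each pool's own list, each divided by its SD over the 13245 genes with a promoter peak in both pools. For Nkx2-5 the nearest was Tbx5, at a distance of 1.001 (9770 and 5516 bp, fold enrichments 10.69 and 7.33 in pools G and H), and next came Egfl7 at 1.018. Nearest genes lay closer for the others: Nr3c1 and Bcl6 for Hand2 (0.414 and 0.449), Cxcl10 and Ptn for Isl1 (0.112 and 0.182), Cry2 and Pcdhgc3 for Mef2a (0.218 and 0.219), and Irf1 and Ppp1r3c for Mef2c (0.204 and 0.25). Dlc1 and Egln1 were nearest to Mef2d (0.383 and 0.399), Fgf11 and Cldn5 to Srf (0.149 and 0.154), and Egr3 and Hrc to Myocd (0.198 and 0.336). Borcs8 and Rfxank lay at 0.0 from Mef2b because they share its peaks. The distance was taken over width and height only.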

How the data were processed

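The peak lists were used as deposited by the authors in narrowPeak format on mm10: 1 list each for pool G and pool H, and 2 for both pools. For peak caller, control and threshold, the sources used here give nothing. The signal column of the deposited lists, unnamed there, was taken to be a fold enrichment (a ratio over control), since its values are not whole and the deposited notes mention tracks of fold change over control. Peak summits and −log10 q values are likewise as the authors deposited them. Every peak end lay within its chromosome. Starts came from GENCODE M21 protein-coding transcripts. Peaks were counted at an overlap of at least 1 bp with Python 3.11.15 and numpy 2.4.6. On simulated data, overlaps and joined domains were checked against bedtools 2.31.1.

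The members and gene lists were chosen with earlier results of these data known, so no enrichment was tested. Genes named besides the 10 are the 2 most alike each, neighbours in the loci, the listed cell type markers, and, of the partners and targets, those without a peak and the 3 widest; Shox2, Hcn4, Th and Dbh among the markers were picked out after their values were seen. The count over the neuron marker list is not reported here. Depth is unknown, so no interval for counting error could be set. Alternatives were the other 3 lists, peaks with −log10 q of at least 5, windows of 500 and 2000 bp, gaps of 0 and 3000 bp, loci with 0 and 20 kb upstream, start groups of 100 and 1000 bp, the longest transcript and the nearest promoter peak. Starts of support level 1 only were added after seeing the data.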

Additional observations from a re-analysis of the deposited data

How the results depend on the processing

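Of 54 values recomputed under the alternatives, 44 moved by less than the spread between pools or, for counts, stayed within 1.5 times. The median promoter domain of the 9 genes with a peak moved from 5066 bp to 4186 bp in pool H's own list, 4047 bp with −log10 q of at least 5, 3255 bp with no gap joined and 8334 bp with gaps up to 3000 bp joined. Their median fold enrichment was 10.49 in pool H's own list. With −log10 q of at least 5, locus peaks fell from 45 to 29 and peaks away from starts from 25 to 12. With no upstream part of the locus, peaks away from starts numbered 16 and the median cover was 5.97%. Support level 1 starts gave 9 marked groups of 14. Counting only the longest transcript left 7 of 10 genes with a promoter peak, without Hand1, Mef2b and Mef2c. No paired analysis was possible because the technical replicates of a pool share 1 alignment and peak list, so that no value exists per library and no test was made; for the same reason no technical replicate could be left out.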

Other observations

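Non-coding transcripts start inside several of the loci. Hand2os1, a long non-coding RNA that starts beside Hand2 on the opposite strand, has 32 annotated starts, of which 29 lie in the Hand2 locus and 24 under the Hand2 promoter domain. That domain covers starts of both genes, and the mark at Hand2 and at Hand2os1 cannot be told apart. At Srf, the start of the microRNA gene Mir6976 lies under the Srf promoter domain. At Mef2a, the start of the unclassified transcript Gm44668 lies under the promoter domain, and that of Gm44667 has no peak within 1000 bp.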
